A study of Arabidopsis thaliana with 8 samples.

Results

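The effect of the MED16 mutation sfr6-3 on the Arabidopsis thaliana seedling transcriptome was taken over both COBRA (COB) backgrounds, using all 8 of the 8 RNA libraries of the study. The members were chosen by genotype label. The 4 libraries that carried sfr6-3, from the single mutant sfr6-3 and the double mutant cob-6sfr6-3, were set against the 4 that did not, from Col-0 wild type (WT) and the single mutant cob-6. Each genotype had 2 libraries from whole seedlings that were 7 days old and had been kept in 24 h light. The labels do not say whether the 2 libraries of a genotype came from separately grown plants, so the p-values measure the spread between these libraries, which may be technical. In whole seedlings, fewer cells of a type and less RNA per cell cannot be told apart.

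MED16 is a subunit of the tail of Mediator, the complex that links DNA-bound transcription factors to RNA polymerase II. In Arabidopsis it is also known as SENSITIVE TO FREEZING6, because its mutants fail to induce many cold-regulated genes and do not acclimate to cold, and it has known roles in jasmonate, ethylene and salicylic acid defence and in iron uptake. COB is a membrane-anchored protein needed for oriented cell expansion and cellulose deposition, and the study identified MED16 as the suppressor of COB named MONGOOSE1.

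Total gene reads were 324504432 in WT replicate 1 and ranged from 24011199 to 37744914 in the other 7 libraries. In none (0) of the 25179 genes with unique reads did WT replicate 1 hold fewer unique reads than the other 7 libraries summed, and in 1178 genes it held exactly that sum. The labels do not say whether it holds reads of those libraries, carriers included, so its CPM may be those of a mixture, and results are also given without it. Levels are CPM, that is reads scaled to the library total with TMM factors, listed for replicate 1 and then replicate 2, and are not corrected for gene length. Changes are log2 fold changes, carriers of sfr6-3 minus non-carriers, from an additive model with the COB genotype as covariate, given ± SE over 4 libraries against 4. Each adjusted p comes from edgeR's quasi-likelihood test with Benjamini-Hochberg adjustment over 21384 genes, and a gene was called when it was below 0.05.

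The MED16 gene itself (AT4G04920, chromosome 4, 2497644 to 2505535 in the deposited coordinates, whose build is not given) was measured first as a check of the labels. Its level was 24.3 and 34.5 CPM in WT and 29.3 and 39.1 CPM in cob-6. The sfr6-3 libraries had 8.59 and 8.45 CPM and the double mutant 10.8 and 7.48. Every carrier lay below every non-carrier, and the change was -1.84 ± 0.17 (adjusted p = 0.00021), a level 0.279 times that of the non-carriers. COB (AT5G60920) stood at 143 and 239 CPM in WT, 68.3 and 66.9 in cob-6, 187 and 187 in sfr6-3, and 82.5 and 70.3 in the double mutant. COB was thus low in both genotypes labelled cob-6, and its change with sfr6-3 was 0.07 ± 0.14 (adjusted p = 0.913). Of the 22 Mediator subunits tested, MED16 was the 1 that was called, and the median change of the 22 was -0.04.

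The sfr6-3 mutation went mainly with lower transcript levels. Of 21384 genes, 268 (1.25%) were called, 246 lower (1.15%) and 22 higher (0.103%). Among the called genes, 153 were more than 2-fold lower, 41 more than 4-fold lower and 8 more than 2-fold higher, while the median change of all tested genes was 0.01. A called gene was counted as shared when both carriers lay beyond both non-carriers, in the same direction, within each COB background. This held for 265 of the 268 calls (1.24% of genes tested), and the exceptions were APY5, AT5G06630 and XTH22. Over all tested genes, such a lack of overlap was found for 6.03% in the lower and 3.74% in the higher direction. The additive call itself favours a lack of overlap, since both are read from the same libraries, so the 265 are a description and no separate test of sharing. Without WT replicate 1, 548 of 22207 genes were called (2.47%), 416 lower (1.87%) and 132 higher (0.594%), and 260 of the 268 were called again in the same direction. The count was 171 without WT replicate 2, 148 without cob-6 replicate 1, 144 without cob-6 replicate 2 and 140 without double mutant replicate 1. Whichever 1 library was left out, 101 of the 268 genes stayed called, 95 lower and 6 higher.

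**Figure D1:**
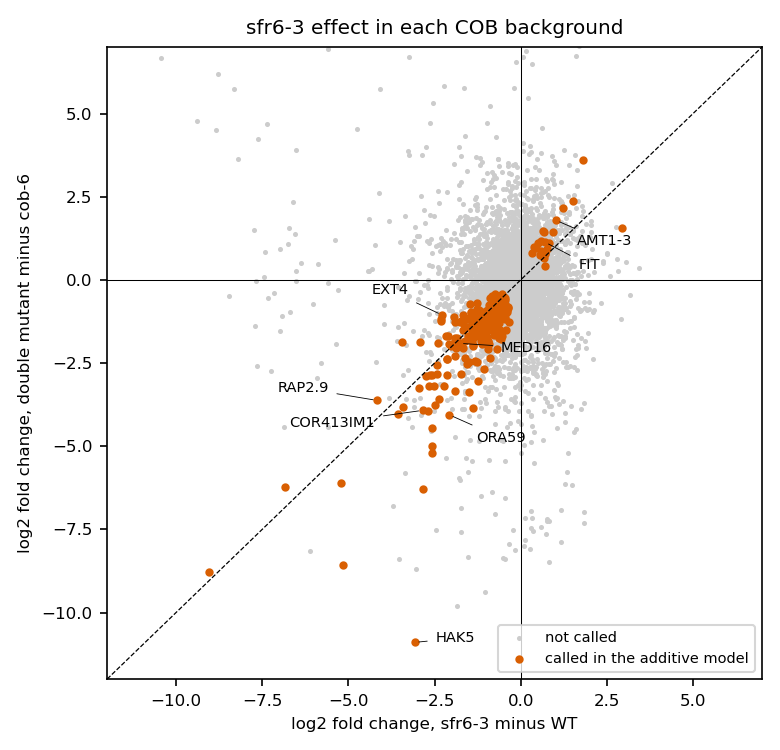
Each point is a tested gene, with the log2 fold change of sfr6-3 minus WT on the x axis and of the double mutant minus cob-6 on the y axis. The 268 genes called in the additive model (orange) have the same sign in both backgrounds, which the additive call itself favours, the dashed line marks equal change, 16 uncalled genes lie outside the axes, and HAK5 and EXT4 were labelled after their values were seen.

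The effect was read in each background from the same libraries with 1 mean per genotype. Taken alone, sfr6-3 against WT gave 28 calls (0.131%) and the double mutant against cob-6 gave 291 (1.36%). Only the first comparison uses the means of WT with its replicate 1, which may be a mixture, so these counts do not compare the size of the effect. Of the 268 genes, 25 were also called in the first, 135 in the second, 21 in both and 129 in neither. The median change of the 246 lower genes was -0.99 in the WT background and -1.26 in the cob-6 background, and without WT replicate 1 it was -1.19 and -1.26. The difference between the backgrounds was tested as an interaction, which was called for 11 genes (0.0514%), and 0 of these were among the 268. At an unadjusted p below 0.05, 41 of the 268 (15.3%) had an interaction, against 9.08% of all tested genes. An interaction that misses the threshold does not show that the effect was equal in size in both backgrounds.

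Of the largest falls named by size, a ranking limited to genes with a symbol, not too low in level and with mostly unique reads, 5 are described here. DIN11, a dark-inducible oxygenase, had 3.84 and 1.54 CPM in WT, 3.92 and 17.4 in cob-6, 0.546 and 0.224 in sfr6-3, and 0.311 and 0 in the double mutant, where 0 reads allow up to 0.0795 CPM. All carriers lay below all non-carriers, and the change was -4.41 ± 0.83 (adjusted p = 0.0191). AACT1, an acyltransferase, had 6.65 and 1.87 CPM in WT, 16.4 and 35.5 in cob-6, 1.33 and 0.187 in sfr6-3, and 1.44 and 0.0807 in the double mutant. Its groups also did not overlap, and its change was -3.96 ± 0.76 (adjusted p = 0.0211). RAP2.9, an AP2/ERF transcription factor, had 2.95 and 2.56 CPM in WT, 3.3 and 10.7 in cob-6, 0.078 and 0.224 in sfr6-3, and 0.0777 and 0.995 in the double mutant, a change of -3.84 ± 0.61 (adjusted p = 0.00697). PLA2A, a patatin-like lipid acyl hydrolase, fell by 2.5 (adjusted p = 0.00486) and FRO4, a ferric-chelate reductase, fell by 2.49 (adjusted p = 0.0027), and both stayed called whichever library was left out, although PLA2A lost its call without the COB covariate (adjusted p = 0.256). The call of DIN11 ended without cob-6 replicate 2 (adjusted p = 0.0608), sfr6-3 replicate 2 (0.0509) or double mutant replicate 1 (0.097), and that of AACT1 without the same libraries (0.0636, 0.0575 and 0.097). That of RAP2.9 ended without cob-6 replicate 2 (0.0595).

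**Figure D2:**
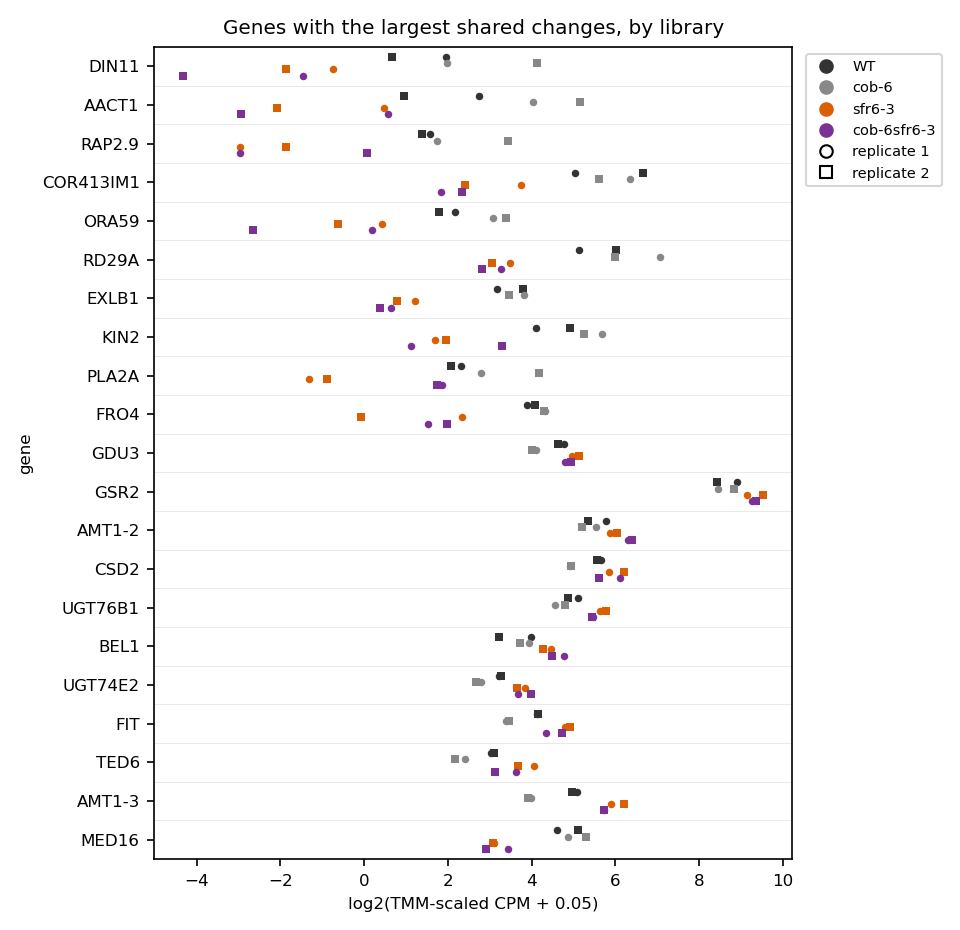
Level of the 10 largest shared falls, the 10 largest shared rises and MED16 in each library, as log2(TMM-scaled CPM + 0.05), with colours for genotypes and shapes for replicate numbers. In each row, both carriers lie on one side of both non-carriers within each COB background, which the choice of every gene but MED16 required.

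Cold-regulated genes encode protective proteins that accumulate when plants acclimate to cold, and the labels name no cold treatment of these seedlings. Of 19 tested members 6 were called lower (background 1.15%) and 0 higher, 16 had a negative change, and the median was -0.58. The lower members were RD29A, COR413IM1, KIN2, LTI30, ERD10 and COR413-PM1, and RCI2B joined them without WT replicate 1. RD29A (AT5G52310), a hydrophilic stress protein, had 35.1 and 65.2 CPM in WT, 134 and 64.2 in cob-6, 11.2 and 8.27 in sfr6-3, and 9.56 and 7.0 in the double mutant. The highest carrier was below the lowest non-carrier, and the change was -2.98 ± 0.31 (adjusted p = 0.000562). COR413IM1 (AT1G29395), a protein of the chloroplast inner envelope, had 33.0 and 102 CPM in WT, 82.0 and 48.7 in cob-6, 13.5 and 5.27 in sfr6-3, and 3.54 and 5.0 in the double mutant. Its groups did not overlap and its change was -3.36 ± 0.39 (adjusted p = 0.000778).

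KIN2 (AT5G15970), a small hydrophilic protein, had 17.1 and 30.4 CPM in WT, 51.0 and 38.4 in cob-6, 3.2 and 3.82 in sfr6-3, and 2.14 and 9.74 in the double mutant, and it changed by -2.82 ± 0.34 (adjusted p = 0.000955). LTI30 (AT3G50970), a dehydrin, had 9.43 and 15.3 CPM in WT, 10.9 and 9.89 in cob-6, 4.57 and 3.4 in sfr6-3, and 2.99 and 2.88 in the double mutant, and it changed by -1.72 ± 0.21 (adjusted p = 0.000982). Both genes were lower in each carrier than in any non-carrier. The calls of RD29A, COR413IM1, KIN2 and LTI30 held whichever library was left out. The dehydrin gene ERD10 changed by -0.81 ± 0.16 (adjusted p = 0.0212) and COR413-PM1 by -0.71 ± 0.15 (adjusted p = 0.0389). Their calls ended in 5 and 6 of the 8 leave-outs, with adjusted p up to 0.0907 and 0.161. Of 9 cold regulators, which act above these genes, 0 were called (background 1.25%), and their changes ran from -1.66 to 0.39 with a median of 0.00. In 1 of the 9, carriers were lower without overlap in each background (6.03% of all genes). CBF2, a CRT/DRE-binding activator of cold genes, had 1.35 and 1.58 CPM in WT, 1.38 and 0.903 in cob-6, 2.58 and 0.823 in sfr6-3, and 1.79 and 1.59 in the double mutant, with overlapping groups.

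Promoters of the 4 cold genes with the smallest p are shown because the CBF factors bind the CRT/DRE element with core CCGAC and abscisic acid factors bind the ABRE core ACGTG. EXLB1 and AMT1-3 follow as the fall and the rise with the smallest p outside the cold genes. Each sequence is the 250 bases before the RefSeq gene start in TAIR10.1, 5′ to 3′ on the gene's strand, with capitals marking CCGAC or ACGTG on either strand. RD29A lies at chr5:21240467-21240716 (+), LTI30 at chr3:18940393-18940642 (+), COR413IM1 at chr1:10289667-10289916 (-), KIN2 at chr5:5211469-5211718 (+), EXLB1 at chr4:9583291-9583540 (-) and AMT1-3 at chr3:8807461-8807710 (-).
RD29A: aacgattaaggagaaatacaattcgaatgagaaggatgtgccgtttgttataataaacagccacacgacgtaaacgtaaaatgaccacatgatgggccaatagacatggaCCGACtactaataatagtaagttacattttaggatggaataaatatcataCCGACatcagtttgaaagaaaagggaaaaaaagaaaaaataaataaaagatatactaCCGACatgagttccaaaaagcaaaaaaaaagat
LTI30: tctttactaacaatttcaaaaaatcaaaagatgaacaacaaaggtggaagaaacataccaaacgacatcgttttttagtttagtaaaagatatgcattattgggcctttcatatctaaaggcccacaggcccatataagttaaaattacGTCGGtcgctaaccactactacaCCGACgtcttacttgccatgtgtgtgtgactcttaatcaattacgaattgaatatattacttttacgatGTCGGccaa
COR413IM1: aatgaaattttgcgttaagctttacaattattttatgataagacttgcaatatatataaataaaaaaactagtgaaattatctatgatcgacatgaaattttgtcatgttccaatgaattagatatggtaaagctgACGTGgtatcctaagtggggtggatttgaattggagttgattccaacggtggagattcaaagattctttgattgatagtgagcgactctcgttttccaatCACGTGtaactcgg
KIN2: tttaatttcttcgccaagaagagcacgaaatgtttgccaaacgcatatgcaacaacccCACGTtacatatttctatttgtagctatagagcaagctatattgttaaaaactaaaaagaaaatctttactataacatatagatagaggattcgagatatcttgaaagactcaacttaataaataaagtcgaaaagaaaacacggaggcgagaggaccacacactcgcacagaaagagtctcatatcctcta
EXLB1: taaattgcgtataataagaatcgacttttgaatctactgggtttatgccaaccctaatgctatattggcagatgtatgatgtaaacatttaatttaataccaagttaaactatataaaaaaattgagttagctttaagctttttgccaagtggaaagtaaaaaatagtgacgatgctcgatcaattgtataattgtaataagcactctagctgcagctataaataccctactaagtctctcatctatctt
AMT1-3: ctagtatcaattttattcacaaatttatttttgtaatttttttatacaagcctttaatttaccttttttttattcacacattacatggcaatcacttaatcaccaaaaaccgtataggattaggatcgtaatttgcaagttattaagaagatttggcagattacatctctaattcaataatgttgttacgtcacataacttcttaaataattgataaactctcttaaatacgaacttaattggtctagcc

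RD29A and LTI30 each held 3 matches to CCGAC. COR413IM1 held 3 matches to ACGTG, of which 2 are the opposite strands of a single CACGTG, and KIN2 held 1. EXLB1 and AMT1-3 held none of the 3 motifs searched, the third being the evening element AAAATATCT. CCGAC was found in 12.7% of 20825 promoters of tested genes, in 17.7% of the 243 lower shared genes with a promoter in RefSeq, and in 3 of the 6 cold genes called lower and 5 of the 13 not called. ACGTG was found in 24% of all promoters and 30.5% of the lower shared genes, and AAAATATCT in 2.46% and 4.12%. In the 20 higher shared genes with a promoter, CCGAC was found in 5%, ACGTG in 35% and AAAATATCT in 10%. Of the cold genes, ACGTG was in 2 of the 6 called and 6 of the 13 not called, and AAAATATCT in 0 and 2. These matches describe the letters in this window only.

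Of 16 tested genes of flavonoid synthesis, which makes flavonols and anthocyanins, 4 were called lower (background 1.15%) and 0 higher, 14 were negative, and the median was -1.08. CHS, encoding chalcone synthase at the entry to the pathway, had 92.4 and 125 CPM in WT, 101 and 120.2 in cob-6, 31.9 and 68.6 in sfr6-3, and 30.2 and 27.9 in the double mutant. All carriers were below all non-carriers, the change was -1.52 ± 0.23 (adjusted p = 0.00457), and the call held whichever library was left out. MYB12, an activator of flavonol genes, changed by -1.47 ± 0.25 (adjusted p = 0.0115), and its call ended without WT replicate 2 (0.0538) or cob-6 replicate 2 (0.0554). FLS1, flavonol synthase, changed by -0.96 ± 0.18 (adjusted p = 0.0191), and its call ended in 4 leave-outs, with adjusted p up to 0.0788. F3H changed by -1.40 ± 0.22 (adjusted p = 0.0068), but only 12.9% of its reads were unique because AT3G51238 overlaps it, and on unique reads its adjusted p was 0.0951. CHI, encoding chalcone isomerase, the next enzyme after CHS, had 19.0 and 17.4 CPM in WT, 18.9 and 20.8 in cob-6, 13.5 and 21.1 in sfr6-3, and 19.6 and 14.0 in the double mutant. Those groups overlapped and its change was -0.16 ± 0.16.

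In the branch of defence that jasmonate and ethylene activate together, 3 of 5 tested members were called lower (background 1.15%) and 0 higher. The median was -0.93, with 4 members negative and 1 positive, at 1.08. ORA59, the ERF transcription factor on which the hormones converge, had 4.49 and 3.41 CPM in WT, 8.34 and 10.4 in cob-6, 1.29 and 0.599 in sfr6-3, and 1.09 and 0.108 in the double mutant. Carriers and non-carriers did not overlap, and the change was -3.03 ± 0.56 (adjusted p = 0.0168). That call ended without cob-6 replicate 2 (0.0519) or double mutant replicate 1 (0.0633). PR4, a chitin-binding defence protein, had 45.0 and 59.7 CPM in WT, 57.2 and 86.1 in cob-6, 16.7 and 22.5 in sfr6-3, and 14.5 and 25.0 in the double mutant. Its change was -1.63 ± 0.20 (adjusted p = 0.000981). OSM34, an osmotin-like protein, changed by -0.93 ± 0.15 (adjusted p = 0.00747), and the calls of PR4 and OSM34 held in every leave-out, although OSM34 lost its call without the COB covariate (adjusted p = 0.0771). Of the 11 genes on that list, 6 did not pass the filter on low counts. The other hormone lists gave no call with all 8 libraries: 0 of 18 salicylic acid genes (median 0.02), 0 of 20 genes for making jasmonate or in its MYC branch (median -0.09) and 0 of 18 abscisic acid and dehydration genes (median -0.13). At the background of 1.25% called, lists of this size can hold 0 calls without differing from other genes. Without WT replicate 1, JAZ9 and VSP2 of the MYC branch (adjusted p = 0.00545 and 0.0447) and the abscisic acid gene RD26 (adjusted p = 0.0361) were called lower (background 1.87%).

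**Figure D3:**
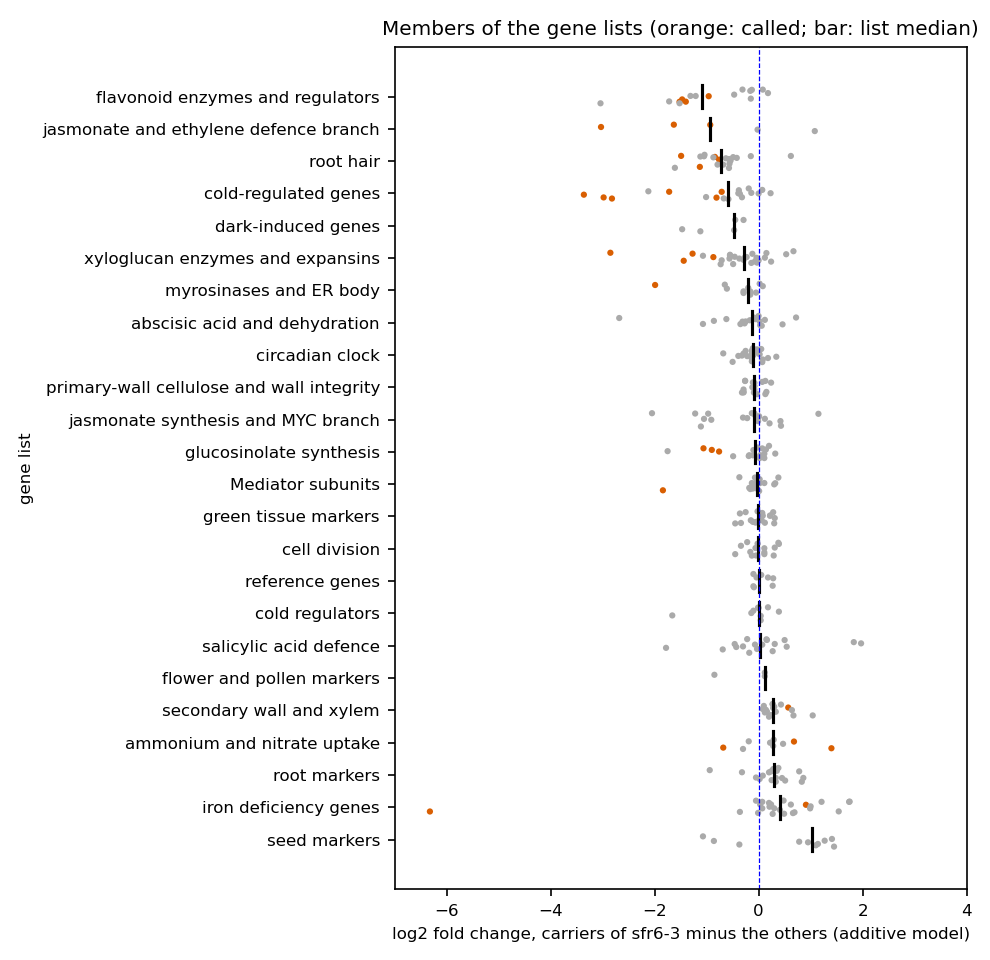
Log2 fold change of every tested member of the 24 gene lists, carriers of sfr6-3 minus the others, with called genes in orange, a black bar at each list's median and a dashed line at the median of all tested genes, 0.01. Flavonoid, jasmonate and ethylene defence, root hair and cold-regulated genes have medians between -1.08 and -0.58.

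Wall genes were read in 2 lists, whose difference was not tested. Of 28 xyloglucan enzymes and expansins 4 were called lower (background 1.15%) and 0 higher, 23 were negative, and the median was -0.28. EXLB1 (AT4G17030), an expansin-like protein, had 8.98 and 13.9 CPM in WT, 14.0 and 11.0 in cob-6, 2.26 and 1.68 in sfr6-3, and 1.52 and 1.26 in the double mutant. The lowest non-carrier was above the highest carrier, and the change of -2.85 ± 0.25 (adjusted p = 0.000166) was called in every leave-out. EXPA8, an expansin, changed by -0.87 ± 0.17 (adjusted p = 0.0191), and the xyloglucan-modifying enzyme genes XTH15 and XTH22 by -1.27 ± 0.26 (adjusted p = 0.0329) and -1.44 ± 0.29 (adjusted p = 0.0273). Each of these 3 calls ended in 6 leave-outs, with adjusted p up to 0.0799, 0.132 and 0.12. XTH22 overlapped in the WT background, where it had 60.4 and 158 CPM in WT and 69.6 and 28.3 in sfr6-3. Of 18 genes for primary-wall cellulose and wall integrity 0 were called (background 1.25%), and they lay between -0.32 and 0.24 with a median of -0.09. CESA3, a catalytic subunit of the primary-wall cellulose synthase, had 642 and 849 CPM in WT, 708 and 653 in cob-6, 625 and 549 in sfr6-3, and 627 and 488 in the double mutant, a change of -0.32 ± 0.13 (adjusted p = 0.36).

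Secondary wall and xylem genes build lignified vessel walls. All 17 tested members had a positive change, from 0.08 to 1.04 with a median of 0.27, and 1 of them was called higher (background 0.103%). This was XCP2, a protease of xylem vessels, which had 62.3 and 71.1 CPM in WT, 53.7 and 54.7 in cob-6, 114 and 105 in sfr6-3, and 79.3 and 65.8 in the double mutant. Its change was 0.57 ± 0.11 (adjusted p = 0.0242), and its call ended in 6 leave-outs with adjusted p up to 0.0973. TED6, a membrane protein of forming vessels named for the size of its change, had 8.12 and 8.48 CPM in WT, 5.26 and 4.47 in cob-6, 16.7 and 12.8 in sfr6-3, and 12.4 and 8.74 in the double mutant. The change was 0.97 ± 0.18 (adjusted p = 0.0172), and the call ended in 4 leave-outs with adjusted p up to 0.0723.

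Of 20 tested root hair genes 4 were called lower (background 1.15%) and 0 higher, 19 were negative, 10 had lower carriers without overlap in each background (6.03% of all genes), and the median was -0.72. Their summed level was 303 and 226 CPM in WT, 512 and 456 in cob-6, 214 and 182 in sfr6-3, and 265 and 321 in the double mutant. It was highest in the cob-6 single mutant, and within each COB background the carriers lay below the non-carriers. XTH14 had 24.4 and 17.9 CPM in WT, 47.6 and 38.5 in cob-6, 11.4 and 13.7 in sfr6-3, and 19.0 and 26.3 in the double mutant, a change of -0.84 ± 0.15 (adjusted p = 0.0138). RHS12 changed by -1.13 ± 0.20 (adjusted p = 0.0148), RHS13 by -0.76 ± 0.16 (adjusted p = 0.0316), and the proline-rich wall protein gene PRP1 by -1.49 ± 0.33 (adjusted p = 0.0445). None of the 4 calls held in all leave-outs: XTH14 was lost without cob-6 replicate 1 (0.0645) or double mutant replicate 1 (0.0545), and the others in 3 to 6 leave-outs with adjusted p up to 0.0724, 0.126 and 0.14. Without the COB covariate the same 4 genes had adjusted p between 0.157 and 0.556.

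Of 18 other root markers 0 were called (background 1.25%), 15 were positive, the median was 0.30, and 6 had higher carriers without overlap (3.74% of all genes). The summed level of the root markers was 226 to 361 CPM in non-carriers and 289 to 369 in carriers. The part of root content in the root hair and xylem values was not tested.

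Of 25 iron deficiency genes, which respond when iron is short, 21 were positive and the median was 0.41, with 1 called higher (background 0.103%) and 1 lower (background 1.15%). FIT (AT2G28160), the root transcription factor that activates iron uptake genes, had 17.6 and 17.9 CPM in WT, 10.5 and 10.9 in cob-6, 27.7 and 30.0 in sfr6-3, and 20.2 and 26.6 in the double mutant. Every carrier was above every non-carrier, and the change was 0.91 ± 0.14 (adjusted p = 0.00509), called in every leave-out but not without the COB covariate (adjusted p = 0.0854). The FIT targets IRT1, the iron transporter, and FRO2, the ferric-chelate reductase, changed by 0.07 ± 0.22 and 0.07 ± 0.16. AT3G12900 had 0.315 and 0.0811 CPM in WT, 1.19 and 1.44 in cob-6, 0 in both sfr6-3 libraries, and 0 and 0.0269 in the double mutant, and it was called lower (adjusted p = 0.0237). A count of 0 allows up to 0.123 and 0.113 CPM in the sfr6-3 libraries. This was a difference of few reads, and the call ended in 7 leave-outs, among them WT replicate 1 (adjusted p = 0.0534), with adjusted p up to 0.145.

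The values of BHLH38 and BHLH39, bHLH partners of FIT, depended on WT replicate 1. BHLH38 had 5.98 and 0.487 CPM in WT, 1.73 and 6.36 in cob-6, 8.62 and 7.59 in sfr6-3, and 22.9 and 17.0 in the double mutant. With all libraries its change was 1.74 ± 0.52 (adjusted p = 0.162) and without WT replicate 1 it was 2.76 ± 0.42 (adjusted p = 0.0026). BHLH39 gave 1.75 ± 0.50 (adjusted p = 0.138) and 2.52 (adjusted p = 0.00575), and AT1G47395 gave 1.54 ± 0.59 (adjusted p = 0.328) and 2.69 (adjusted p = 0.00269). Both non-carrier genotypes differed widely between their own replicates for these genes. Without that library, 4 of the 25 were called higher (background 0.594%) and 0 lower.

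Of the 9 ammonium and nitrate uptake genes tested, 2 were called higher (background 0.103%) and 1 lower (background 1.15%). AMT1-3 (AT3G24300), a root ammonium transporter, had 34.2 and 31.5 CPM in WT, 15.7 and 15.0 in cob-6, 59.5 and 74.0 in sfr6-3, and 52.9 and 53.5 in the double mutant. All carriers lay above all non-carriers, and the change of 1.40 ± 0.15 (adjusted p = 0.000643) was the largest of the rises named by size and held in every leave-out. AMT1-2, another ammonium transporter, had 54.9 and 41.0 CPM in WT, 46.3 and 36.6 in cob-6, 58.8 and 66.0 in sfr6-3, and 79.5 and 84.2 in the double mutant, a change of 0.68 ± 0.15 (adjusted p = 0.0415). NIA1, a nitrate reductase and the call in the other direction, changed by -0.68 ± 0.15 (adjusted p = 0.037). Outside that list, GSR2, a cytosolic glutamine synthetase, changed by 0.65 ± 0.14 (adjusted p = 0.0344), and GDU3, of the glutamine dumper family of amino acid export, by 0.57 ± 0.13 (adjusted p = 0.0498). The calls of AMT1-2, GSR2 and NIA1 each ended in 6 leave-outs and that of GDU3 in 7, with adjusted p up to 0.166, 0.141, 0.131 and 0.212.

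The other rises named by size had diverse roles. UGT76B1, a glucosyltransferase for isoleucic and salicylic acid, had 34.4 and 29.4 CPM in WT, 23.5 and 27.9 in cob-6, 49.8 and 54.5 in sfr6-3, and 44.0 and 43.7 in the double mutant. No carrier overlapped a non-carrier, and the change was 0.74 ± 0.11 (adjusted p = 0.00458), called in every leave-out. UGT74E2, a glucosyltransferase for indole butyric acid, changed by 0.81 ± 0.17 (adjusted p = 0.0353), BEL1, a homeodomain protein of ovule development, by 0.76 ± 0.17 (adjusted p = 0.0415), and CSD2, a chloroplast superoxide dismutase, by 0.69 ± 0.15 (adjusted p = 0.0351). Those 3 calls ended in 6, 7 and 5 leave-outs, with adjusted p up to 0.151, 0.15 and 0.148.

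TGG2, a myrosinase that hydrolyses glucosinolates, had 143 and 265 CPM in WT, 267 and 281 in cob-6, 63.7 and 79.9 in sfr6-3, and 48.8 and 49.8 in the double mutant. Its groups did not overlap and its change of -1.99 ± 0.22 (adjusted p = 0.00064) held in every leave-out. It was the 1 call among 11 myrosinase and ER body genes (background 1.15% lower), whose median was -0.20. TGG1, the other main myrosinase, changed by -0.65 ± 0.15 (adjusted p = 0.06, and 0.00689 without WT replicate 1). Of 18 glucosinolate synthesis genes 3 were called lower (background 1.15%), with a median of -0.06. These were BCAT4, MAM1 and MAM3, which lengthen the side chain of methionine at the start of aliphatic glucosinolate synthesis, with changes of -1.06 ± 0.21, -0.90 ± 0.19 and -0.76 ± 0.14 (adjusted p = 0.022, 0.0334 and 0.0163). BCAT4 had 72.8% unique reads and overlaps AT3G19700. The calls ended in 4, 5 and 2 leave-outs, with adjusted p up to 0.105, 0.126 and 0.0767.

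Several lists gave no call with all 8 libraries. None (0) was called among 24 clock genes (median -0.11), 15 cell division genes (median -0.02), 19 green tissue markers (median -0.02), 8 reference genes (median 0.00) or 5 dark-induced genes (median -0.47). The background was 1.25%, so 0 calls in lists of this size do not set them apart from other genes. All 5 dark-induced genes were negative, and in 4 of them carriers were lower without overlap in each background (6.03% of all genes). Without WT replicate 1, 2 of the 5 were called lower (background 1.87%). ASN1, a dark-induced asparagine synthetase, had 276 and 904 CPM in WT, 359 and 184 in cob-6, 222 and 72.7 in sfr6-3, and 129 and 154 in the double mutant. The WT replicates lay far apart, and its adjusted p was 0.107 with and 0.0268 without WT replicate 1. RVE1, a clock-related MYB factor, had adjusted p of 0.0847 with and 0.0137 without WT replicate 1.

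Seed markers set 1 library apart. Their summed level was 75.6 CPM in double mutant replicate 2 and 0.269 to 13.8 CPM in the other 7 libraries, and 0 of 10 tested seed markers were called. Flower and pollen markers summed to 5.46 to 12.1 CPM, and 3 of 8 passed the filter. The summed level of green tissue markers was 59145 to 83640 CPM in non-carriers and 62092 to 83087 in carriers. Without double mutant replicate 2, 189 genes were called, and 169 of them were among the 268. The part of seed RNA in the results was not tested beyond that.

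**Figure D4:**
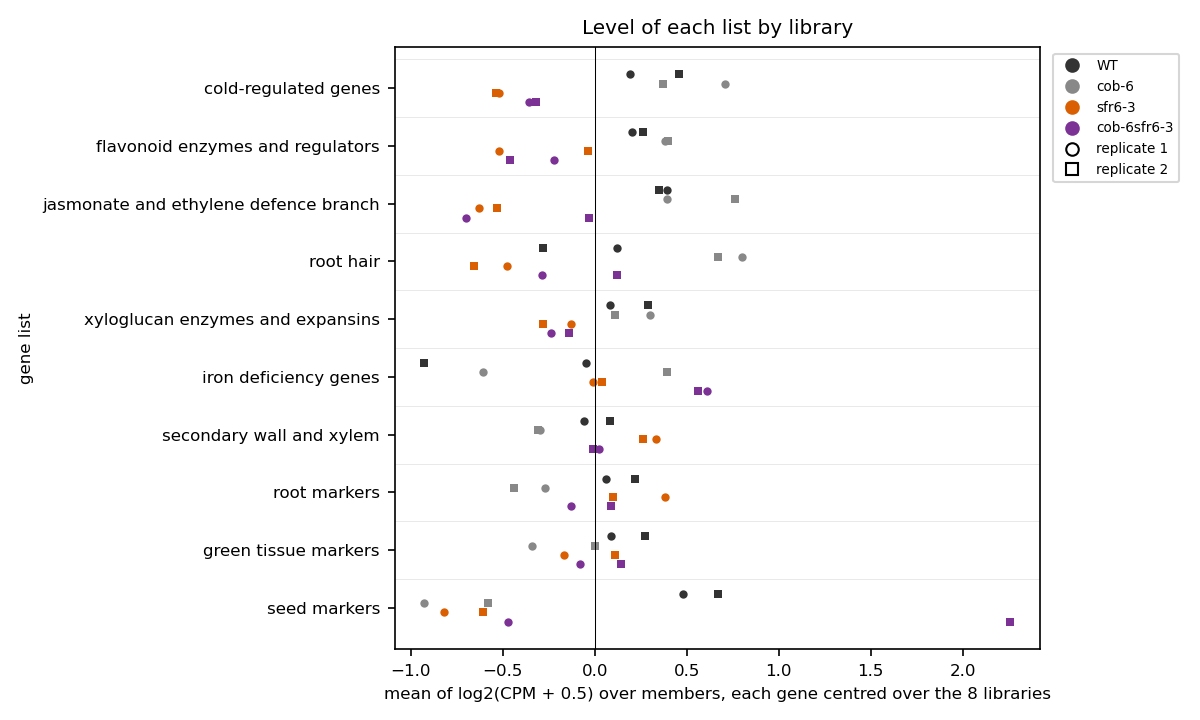
Mean of log2(CPM + 0.5) over the members of 10 lists in each library, with every gene centred over the 8 libraries. Carriers (orange, purple) lie left of non-carriers (black, grey) for the cold-regulated, flavonoid, jasmonate and ethylene defence and xyloglucan lists, and root hair genes do so within each background. Seed markers are highest in double mutant replicate 2, followed by both WT libraries.

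WT replicate 1 lay closer to the carriers than WT replicate 2 for genes such as COR413IM1, TGG2 and BHLH38. Of the 268 called genes, 235 had a larger absolute change without it, and the 8 that lost their call included AT3G12900. What places this library there was not tested.

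**Figure D5:**
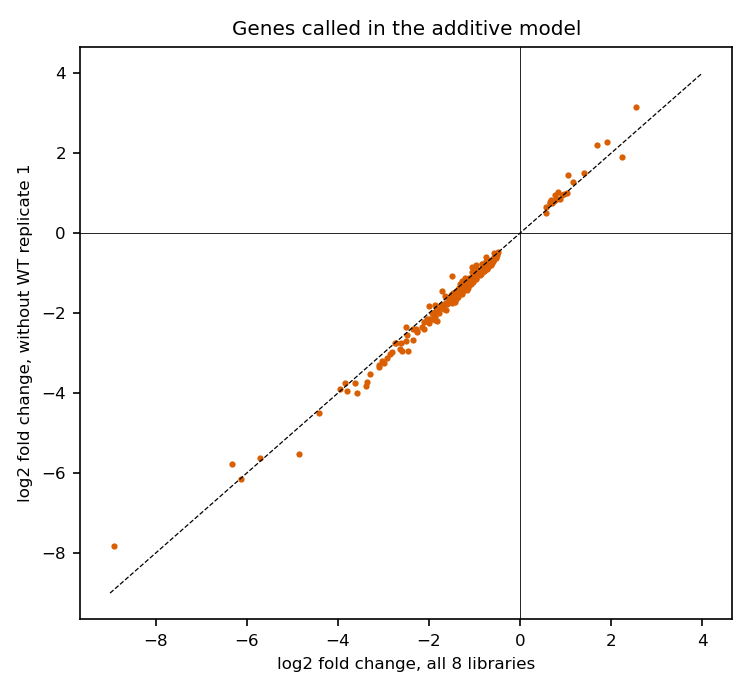
Log2 fold change of the called genes only, with all 8 libraries on the x axis and without WT replicate 1 on the y axis. All 268 keep their sign, and 235 lie farther from 0 on the y axis than the dashed line of equality.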

How the data were processed

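Per the file headers, the authors deposited raw read counts for every gene and library, as total gene reads and unique gene reads. The deposited table's exon length column was not used in a test. Software for alignment and counting, the use of strand and the build were not given in the sources used here, so reads of overlapping or antisense genes cannot be told apart. The table held 33602 genes and 0 columns of other series.

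Total gene reads were fitted with edgeR 4.0.16 in R 4.3.3: TMM scaling, filterByExpr over the 4 genotypes, the quasi-likelihood test with COB genotype as covariate, 5 residual degrees of freedom, and Benjamini-Hochberg adjustment. The biological coefficient of variation was 0.228 and the prior degrees of freedom 8.45. Only the steps of the additive fit, written separately, were run on simulated counts, and the outcome is not given here. The sharing, interaction and leave-out steps were not tried in that way. Replicates correlated at 0.934 to 0.975. A count of 0 allows 3 reads, for counting error only.

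Named genes were COB, MED16, the 10 largest rises and falls called with and without WT replicate 1 and shared by both backgrounds (mean log2 CPM of at least 1, at least 50% unique reads, a symbol), and up to 3 genes with the smallest p per list. A gene that this rule names is not reported here. Other members of the lists and CHI, CBF2, IRT1, FRO2, BHLH38 and AT1G47395 were added after their values were seen. Members, lists and tests were chosen with earlier results of these data known, and list membership came from general knowledge, checked against locus IDs in the table and RefSeq only. DESeq2 1.42.0, other scalings and filters, unique reads, a replicate block and leave-outs were tried. Promoters came from RefSeq TAIR10.1 and were matched by locus ID.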

Additional observations from a re-analysis of the deposited data

Results flagged for a closer look

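For 11 genes the sfr6-3 effect differed between the COB backgrounds by the interaction test of edgeR, taken as the double mutant minus cob-6 less sfr6-3 minus WT (adjusted p below 0.05, 2 libraries per genotype). They were named because of this result. In 9 of them the difference was positive: 12.54 for SESA2 (95% interval 9.31 to 15.76), 6.14 for MRD1 (4.58 to 7.69), 3.87 for HEI10 (3.01 to 4.73), 2.91 for BCB (2.35 to 3.46), 2.57 for ICL (1.86 to 3.28), 2.5 for RRN16S.1 (2.02 to 2.97), 2.48 for PSAB (1.78 to 3.18), 1.47 for RRN26 (0.99 to 1.96) and 1.40 for AT1G58235 (0.96 to 1.84), all on the log2 scale. It was negative for AT3G05905, at -3.45 (-4.04 to -2.86), and for AT5G01210, at -3.29 (-4.36 to -2.22). BCB, a blue copper-binding protein, had 47.7 and 47.3 CPM in WT, 22.7 and 16.6 in cob-6, 33.8 and 25.9 in sfr6-3, and 94.9 and 90.5 in the double mutant. ICL, isocitrate lyase of seedling oil use, had 35.7 and 20.5 CPM in WT, 16.4 and 18.3 in cob-6, 28.2 and 23.0 in sfr6-3, and 99.7 and 85.2 in the double mutant.

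Unique reads made up 0.947% of the reads of AT3G05905, 0.41% of AT5G01210, 0.126% of RRN16S.1, 13.7% of MRD1 and 23.1% of HEI10, and MRD1 and HEI10 overlap each other, so these 5 values are uncertain. On unique reads the interaction was called for 4 genes, against 11 on total reads. Which of the 11 are among these 4 is not given here, so none of the 11 is shown to hold on unique reads. SESA2, a seed storage protein, had 1.14 and 0.852 CPM in WT and 3.54 and 6.75 in the double mutant, and at most 0.0821 CPM in the other genotypes. That maximum lies below 3 reads in the cob-6 and sfr6-3 libraries (0.113 to 0.125 CPM). The size and interval of the SESA2 interaction therefore rest on counts near 0 and are also uncertain. The summed seed markers were also highest in double mutant replicate 2, and their part in the SESA2 values was not tested.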

How the results depend on the processing

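All 268 calls kept their direction in every alternative in which they were tested, but their number moved. Leaving out 1 library at a time gave 140 to 548 calls, 8 to 132 higher, 130 to 416 lower, 140 to 546 shared by both backgrounds and 4 to 31 for the interaction, where each lone library is assumed to vary like the others. DESeq2 gave 647 calls, 104 higher and 543 lower, 579 shared and 91 for the interaction. With no filter on low counts there were 870, 204 higher and 666 lower, 619 shared and 224 for the interaction. Without the COB covariate there were 117, 6 higher and 111 lower, 117 shared. Unique reads with the other 7 libraries subtracted from WT replicate 1 gave 574, 108 higher and 466 lower, 548 shared and 5 for the interaction, and unique reads as deposited gave 35 higher and 4 for the interaction. The cause of these moves was not tested. MED16 stayed called, between -1.95 and -1.73 over the leave-outs.

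Over all tested genes, deviations of same-numbered libraries from their genotype means correlated at -0.0764 to 0.0495, so no pairing by replicate number was seen. This cannot exclude a pairing that affects only some genes, and WT replicate 1 may be a mixture. With the replicate block there were 247 calls, 22 higher and 225 lower, 243 shared and 8 for the interaction, and 233 of them were among the 268.

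Of the named single genes' values under the alternatives, 1035 kept direction and call, 128 lost and 58 gained the call, and 7 changed sign, 0 of them of a called gene. These 7 were AP3 (-1.86 to 0.08 over the leave-outs), SESA2 (-1.52 to 3.61), COB (-0.04 to 0.26) and RRN26 (-0.05 to 0.37): AP3 without cob-6 replicate 2 (0.08), SESA2 without cob-6 replicate 1 (-1.52) or 2 (-1.51), COB without WT replicate 1 (-0.04), and RRN26 without cob-6 replicate 1 (-0.04) or 2 (-0.02) or double mutant replicate 2 (-0.05). Outside WT replicate 1, 3 reads corresponded to 0.0795 to 0.125 CPM, so levels near those values rest on few reads.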

Other observations

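The gene groups in this section were chosen after their values were seen. Of 4 ferritins, which store iron in plastids, 2 were called lower (background 1.15%) and the median was -0.95. FER1 had 81.7 and 142 CPM in WT, 211 and 85.2 in cob-6, 68.9 and 51.2 in sfr6-3, and 21.9 and 35.7 in the double mutant, a change of -1.62 ± 0.34 (adjusted p = 0.0329), with 52.8% unique reads. FER4 changed by -1.04 ± 0.23 (adjusted p = 0.0445). Each ferritin call was lost in 4 or more leave-outs, with adjusted p up to 0.134 for FER1 and 0.148 for FER4, and FER1 was not called by DESeq2 (adjusted p = 0.0646). YSL1, a metal-nicotianamine transporter, changed by -1.86 ± 0.28 (adjusted p = 0.00493) and was called in every leave-out, and NEET, an iron-sulfur protein, by -2.36 ± 0.41 (adjusted p = 0.0117), lost without double mutant replicate 1 (0.0574).

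Of 65 class III peroxidases 8 were called lower (background 1.15%) and 1 higher (background 0.103%), with a median of -0.28. PRXCB, an apoplastic peroxidase of the defence oxidative burst, had 143 and 208 CPM in WT, 136 and 180.1 in cob-6, 56.7 and 65.9 in sfr6-3, and 75.2 and 63.4 in the double mutant, with no overlap and a change of -1.35 ± 0.15 (adjusted p = 0.00064). PER27 had 80.9 and 99.3 CPM in WT, 27.4 and 29.6 in cob-6, 133 and 136 in sfr6-3, and 66.1 and 62.2 in the double mutant, a change of 0.87 ± 0.13 (adjusted p = 0.00493, and 0.569 without the COB covariate). Of 5 indole glucosinolate methyltransferases 4 were called lower (background 1.15%), and these near-identical genes can share reads. The call of IGMT5 ended in all 8 leave-outs and that of IGMT4 in 7, with adjusted p up to 0.167 and 0.128, while those of IGMT1 and IGMT3 held in each. Of 11 SWEET sugar transporters 3 were called lower (background 1.15%), and the calls of SWEET12 and SWEET16 ended in 6 and 7 leave-outs, with adjusted p up to 0.171 and 0.182. HAK5, a high-affinity potassium transporter, had 1.25 and 2.03 CPM in WT, 4.99 and 2.42 in cob-6, 0.117 and 0.262 in sfr6-3, and 0 in both double mutant libraries, which allows up to 0.114 and 0.0795 CPM (adjusted p = 0.02), and its call ended without cob-6 replicate 1 (0.0636) or double mutant replicate 1 (0.0635). Within 5 Mb of MED16 on chromosome 4, 17 of 784 genes (2.17%) were called, against 250 of 20599 (1.21%) elsewhere, with no test of that difference.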
